A study of Mus musculus with 6 samples.

Results

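The solute carriers are the membrane proteins that move amino acids, sugars, ions, metals, vitamins and metabolites across the cell surface and between compartments of the cell. Their genes were taken by name, as every gene with a symbol of the form Slc, a family number, the letter a and a member number, other than Slc8a1. A probe counted only where the platform annotation gave it exactly 1 gene symbol. This gave 71 genes with 91 probes, of which 5 probes were listed at exactly 0 on all 6 arrays and were left out. Slc17a9, Slc26a3 and Slc46a2 were lost with them, and 68 genes with 86 probes remained, among 4742 genes measured in the same way. A further 281 probes named a solute carrier together with other genes and were not used.

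The samples were mouse embryos that developed without fertilisation, from eggs at the second meiotic metaphase. Of the 6 arrays, 3 held embryos from eggs activated with cycloheximide and cytochalasin D, and 3 held embryos from eggs activated with strontium chloride and cytochalasin D. Cycloheximide blocks protein synthesis, strontium makes the egg release calcium, and cytochalasin D, shared by both groups, keeps the polar body inside the egg. The embryos were collected after 60 h in KSOM, a culture medium for early embryos, and mRNA equal to 25 embryos went onto each array, so that every array measured a pool. The labels used here name neither the mouse strain nor the stage of the embryos. Nor do they tell whether the pools of a group were grown apart, and the p-values therefore rest on a spread that may be technical.

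Early mouse embryos take up most of their nutrients through such carriers. Pyruvate and lactate serve as fuel before glucose does, amino acids such as glycine also act as osmolytes, and facilitative glucose transporters supply the embryo as it forms a blastocyst. Ion exchangers hold the pH and drive fluid into the blastocoel, and carriers of the Slc25 family connect the mitochondrial matrix with the cytosol. Many carriers of amino acids are switched on by amino acid shortage through the transcription factor ATF4.

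Each array compared embryo RNA, labelled with Cy3 after 2 rounds of amplification, with the same commercial mouse reference RNA, labelled with Cy5 after 1 round, and no array had the dyes exchanged. The deposited log10 ratios are likely those of Cy5 over Cy3, from the dyes in the labels and the convention of Agilent Feature Extraction, and they were turned and rescaled to log2 of embryo over reference. With the other direction all signs below would turn. Of the embryo marker genes measured, Tdgf1 and Dppa2 lay at 6.64 and 4.09 on this scale as means of 6 arrays (Tdgf1 at the upper limit on all of them, and 2 values of the Dppa2 probes at it), Dppa3 between 5.10 and that limit, Cdh1, Nanog and Krt18 at 0.70, 0.66 and 0.32, and the fibroblast genes Col1a1 and Sparc at -5.21 and -5.77, with Col1a1 at the lower limit on 1 array. A mean that holds a value at a limit is a bound. Of 7 cumulus and granulosa markers only Cyp11a1 and Gja1 were measured, at -0.13 and -1.20, and of 5 blood markers only Ptprc and S100a8, at -2.64 and 0.57. Between the activation groups Cdh1 and Gja1 were lower after cycloheximide at an unadjusted p under 0.05 (differences of -0.51 and -0.65, limma adjusted p = 0.717 and 0.74); their part in the carriers' differences was not tested. The 3 listed kidney and gut markers were not among the genes measured. Array 3 of cycloheximide stood apart from its group: across all probes it correlated at 0.762 and 0.810 with arrays 1 and 2 of that group, which correlated at 0.953 with each other, and at 0.909 with array 3 of strontium.

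A carrier is called embryo-high where its mean log2 ratio was at least 1, or 2-fold, and reference-high where it was at most -1, in either case with an adjusted p under 0.05 in limma's test of that mean against 0. On the reference side the glucose transporter gene Slc2a1 lay at -6.27 ± 0.25 (SD, n = 6 arrays), the amino acid transporter gene Slc38a2 at -3.84 ± 1.03 and the mitochondrial carrier gene Slc25a24 at -2.99 ± 0.84. On the embryo side stood Slc26a1, which exchanges sulfate, at 2.02 ± 0.60, the iron exporter Slc40a1 at 1.64 ± 0.54 and the zinc transporter Slc39a9 at 1.53 ± 0.40. Between the activation groups no carrier passed the test.

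By this rule 8 of the 68 carriers, or 11.8%, were embryo-high, against 11.2% of all 4742 genes, and 9, or 13.2%, were reference-high, against 16.3% of all genes. These shares are near the background and are no result about the family. Their median ratio was 0.08, against 0.16 over all genes. On all 6 arrays 20 carriers lay above 0 and 18 below 0, where 36.0% and 24.8% of all genes did so. The counts by cargo given below are to be read against these shares of all genes. Each cargo group holds 2 to 18 genes, which are few for a share. With every array centred on its own median, which lowered the median ratio of all genes by 0.17, 4 carriers were embryo-high and 13 reference-high (8.56% and 18.8% of all genes). The 4 that stayed embryo-high were Slc26a1, Slc40a1, Slc39a9 and Slc7a11. Without array 3 of cycloheximide 6 carriers were embryo-high and 10 reference-high (10.5% and 16.2% of all genes), and Slc7a1, Slc5a8, Slc7a5 and Slc44a2 lost their calls. In that setting Slc12a8, Slc25a15 and Slc39a8 became reference-high, at -1.135, -1.108 and -1.038. Dye and rounds of amplification changed together with the RNA source on every array, and these cannot be told apart. In such pooled embryos fewer cells that express a gene and less RNA per cell cannot be told apart either. A ratio also does not rank the abundance of different genes.

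**Figure D1:**
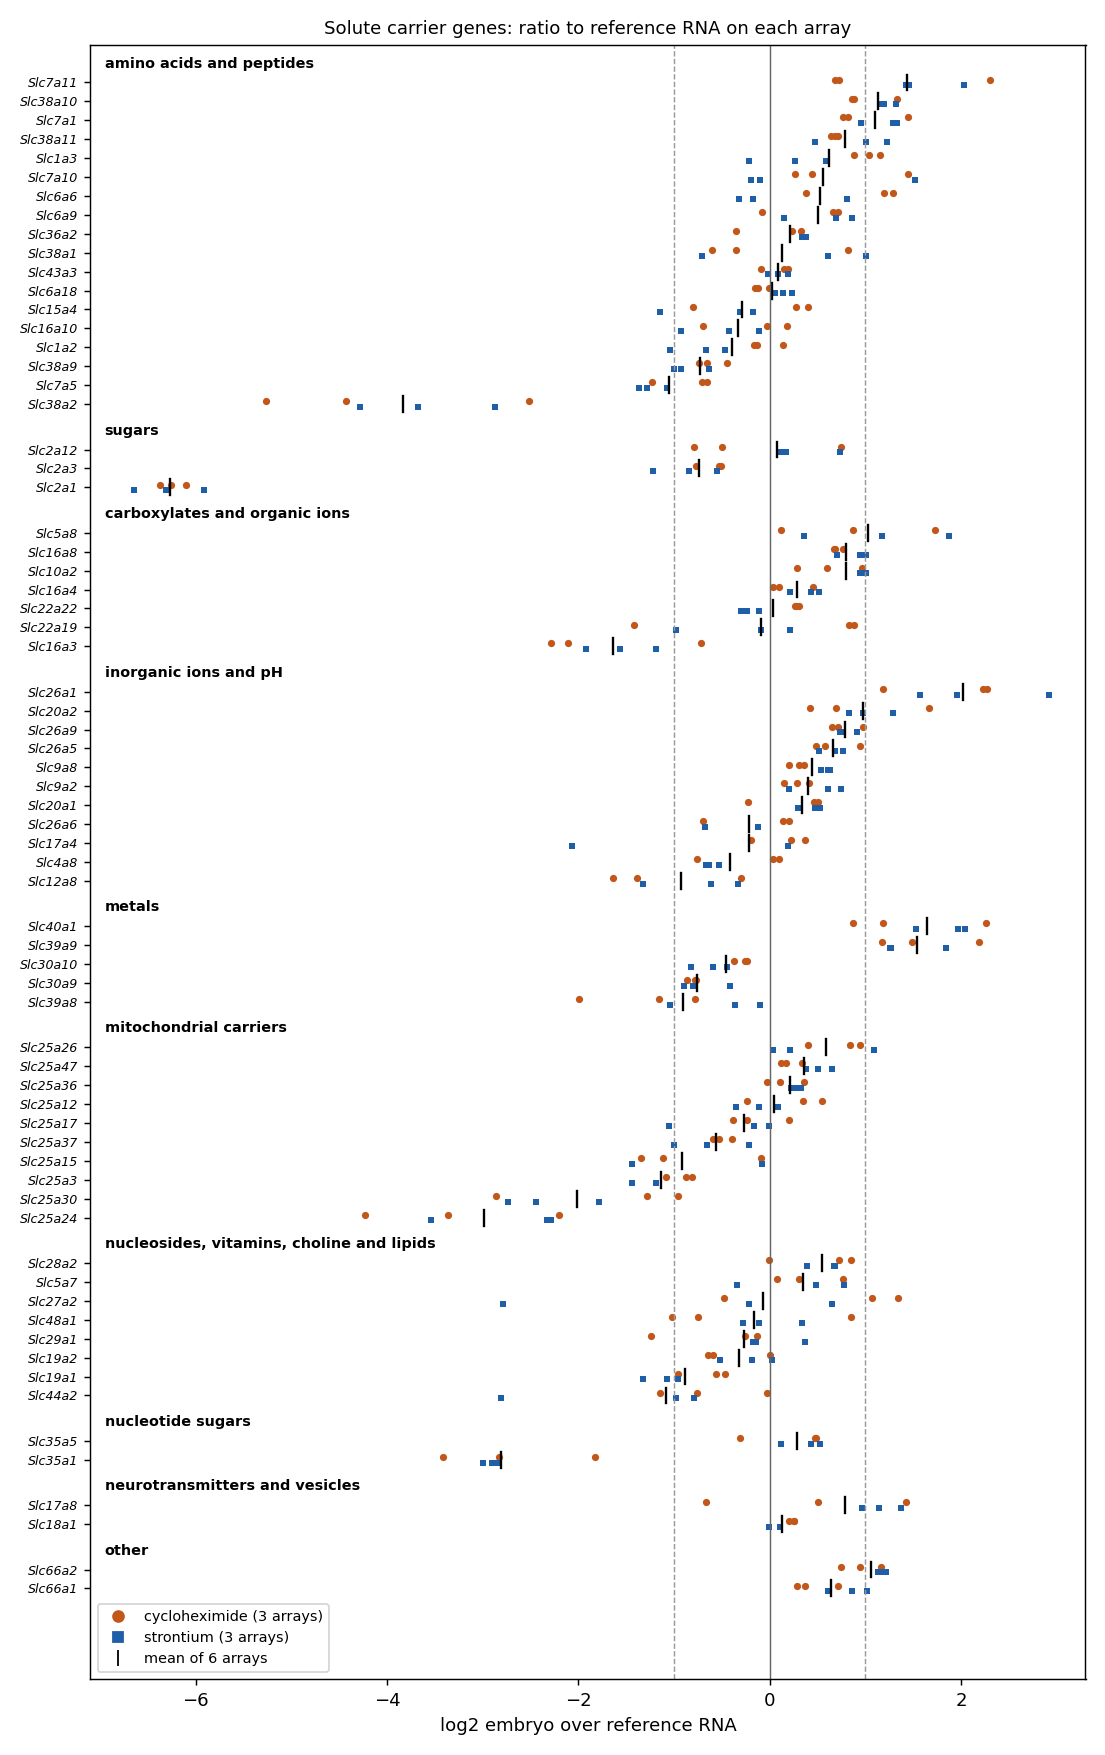
Log2 ratio of embryo over reference RNA (horizontal axis) for the 68 solute carriers, grouped by cargo; circles are the 3 cycloheximide arrays, squares the 3 strontium arrays and black ticks the mean of the 6, with dashed lines at -1 and 1. Slc2a1 lies at -6.27, apart from all other carriers, the arrays of Slc38a2, at -3.84, overlap those of Slc25a24, at -2.99, and the highest mean on the embryo side is 2.02, for Slc26a1.

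Carriers of amino acids and peptides made up the largest group, with 18 genes, of which 3 were embryo-high, 2 reference-high and 13 neither. Slc7a11, the subunit that exchanges cystine for glutamate and feeds glutathione synthesis, was at 0.72, 0.69 and 2.31 after cycloheximide and at 1.45, 1.43 and 2.03 after strontium. All 6 arrays were above 0, the groups overlapped, and array 3 of cycloheximide was the highest of all. It has another probe that was listed at exactly 0 on all arrays, and with that probe averaged in its mean was 0.72 rather than 1.44, below the size required. Slc38a10, a member of the family of sodium-coupled neutral amino acid transporters, was at 0.88, 0.86 and 1.33 after cycloheximide and at 1.32, 1.17 and 1.19 after strontium. Slc7a1, the carrier of lysine and arginine, was at 0.76, 0.82 and 1.44 after cycloheximide and at 1.28, 0.95 and 1.33 after strontium. For both, the 6 arrays lay close together and above 0, and their means of 1.13 and 1.10 are near the threshold of 1. Without array 3 of cycloheximide the mean of Slc7a1 was 0.99, under the size required.

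On the reference side of that group, Slc38a2, a sodium-coupled transporter of neutral amino acids known to be induced by amino acid shortage, was at -5.27, -4.42 and -2.51 after cycloheximide and at -3.67, -4.28 and -2.87 after strontium. Every array was below -2, with the widest spread in the cycloheximide group, and the mean corresponds to 14.3-fold more signal in the reference (limma adjusted p = 0.000297). Slc7a5, the exchanger of large neutral amino acids at the cell surface, was at -0.65, -0.71 and -1.23 after cycloheximide and at -1.29, -1.07 and -1.37 after strontium, a mean of -1.05 that just passed the size required. Without array 3 of cycloheximide it was -0.96 and was not called. Slc38a9, a lysosomal sensor of arginine, averaged -0.73 with all 6 arrays below 0, but its probes disagreed, as described with the other genes of several probes. Members of 1 family stood on both sides: among the Slc7 genes 2 were embryo-high and 1 reference-high, and among the 5 Slc38 genes 1 was embryo-high and 1 reference-high.

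To show what the highest and the lowest amino acid carrier have upstream, the 250 bases before their annotated starts are printed 5′ to 3′ on the gene's strand, from RefSeq (GRCm38.p6). They were chosen after their ratios were seen. Capitals mark TGATGNAA or its reverse complement TTNCATCA, the core of the amino acid response element that ATF4 is known to bind. The Slc7a11 window is chr3:50443614-50443863 on the minus strand, and the Slc38a2 window is chr15:96699729-96699978 on the minus strand.
Slc7a11: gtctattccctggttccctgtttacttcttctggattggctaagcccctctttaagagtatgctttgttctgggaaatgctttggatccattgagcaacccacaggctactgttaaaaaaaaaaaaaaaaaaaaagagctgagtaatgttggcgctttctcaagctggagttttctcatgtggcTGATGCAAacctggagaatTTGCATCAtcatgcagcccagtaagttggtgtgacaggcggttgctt
Slc38a2: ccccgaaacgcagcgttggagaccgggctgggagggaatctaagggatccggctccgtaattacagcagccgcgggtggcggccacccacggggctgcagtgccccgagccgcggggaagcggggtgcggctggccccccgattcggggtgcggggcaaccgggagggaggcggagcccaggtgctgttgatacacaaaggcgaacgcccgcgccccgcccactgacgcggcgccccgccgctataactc
The Slc7a11 window held 2 matches, in opposite orientation, and the Slc38a2 window held 0. Of all 32851 promoter windows of that length 3.45% held at least 1 match. Of the 68 carriers 52 had a window, and Slc7a11 was the only one with a match, 1 of 12 amino acid carriers. The GC box GGGCGG or its reverse complement stood in 1 place in the Slc38a2 window and in none of the Slc7a11 window, against 32.7% of all windows. It was also common among the carriers, in 33 of the 52 with a window. Of the 12 amino acid carriers 10 held it, the embryo-high Slc7a1 and Slc38a10 among them. A match says only that these letters are present. A window without a match does not show that the gene lacks the element, because only these 250 bases were searched.

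The other amino acid carriers lay nearer to the reference. Slc38a11, whose cargo is poorly known, averaged 0.79, and 1 of its 3 probes was listed at exactly 0 on 5 arrays. Such zeros are probably unset ratios. With them taken as missing it was counted among the embryo-high genes, which then numbered 9. Slc6a6, the taurine transporter, was at 1.28, 1.20 and 0.38 after cycloheximide and at -0.33, 0.81 and -0.17 after strontium, so that both groups held a wide range. Slc6a9, the glycine transporter that early mouse embryos are known to use for control of cell volume, was at 0.71, 0.66 and -0.08 after cycloheximide and at 0.86, 0.70 and 0.15 after strontium. Its array 3 was the lowest of each group. Slc7a10, a carrier of small neutral amino acids, was at 0.44, 0.26 and 1.45 after cycloheximide and at -0.11, -0.20 and 1.52 after strontium, where array 3 was the highest of each group.

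The remaining members of this group had means between -0.29 and 0.62, apart from Slc16a10 and Slc1a2 at -0.33 and -0.39. Slc16a10 carries aromatic amino acids and Slc15a4 is a lysosomal carrier of histidine and peptides. Slc38a1 and Slc36a2, both carriers of small neutral amino acids, averaged 0.13 and 0.21. Slc43a3, which is known to carry purine nucleobases although its family also holds amino acid transporters, averaged 0.09. Slc6a18, a renal amino acid transporter, averaged 0.03.

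Of the 3 glucose transporters 1 was reference-high, 0 were embryo-high, and 2 lay below 0 on all arrays. Of all genes 24.8% lay below 0 on all arrays, and 3 genes are few for a share. Slc2a1, the widespread facilitative glucose transporter GLUT1, was at -6.37, -6.26 and -6.10 after cycloheximide and at -6.64, -5.92 and -6.30 after strontium. The arrays lay within 0.73 of each other, and array 1 of strontium was at the limit of the deposited ratios, 100-fold, so that its true ratio may be lower still. The mean corresponds to 77-fold more signal in the reference for the single probe of this gene (limma adjusted p = 1.48e-06). Slc2a3, the high-affinity glucose transporter GLUT3, was at -0.53, -0.77 and -0.51 after cycloheximide and at -0.84, -0.55 and -1.22 after strontium. All its arrays were also below 0, with a mean of -0.74 that did not reach the size required. Slc2a12, another facilitative glucose transporter, was at -0.79, -0.50 and 0.74 after cycloheximide and at 0.74, 0.11 and 0.17 after strontium and lay on both sides of 0. Slc2a1 and Slc2a3 come from different probes, so the sizes of their ratios cannot be set against each other.

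Of the 7 carriers of carboxylates and organic ions 1 was embryo-high and 1 reference-high. Slc16a3, known for export of lactate from glycolytic cells, was at -2.11, -2.29 and -0.72 after cycloheximide and at -1.92, -1.19 and -1.57 after strontium. All arrays were below 0, and array 3 of cycloheximide was the nearest to it. Slc5a8, which takes up lactate and pyruvate with sodium, was at 0.87, 0.12 and 1.73 after cycloheximide and at 1.18, 0.36 and 1.88 after strontium. Its mean of 1.02 was the lowest among the embryo-high genes, and array 2 was the lowest of each group. That call was lost without array 3 of cycloheximide, at 0.82, without array 3 of strontium, at 0.84, and with array weights, at 0.72. It was also lost with quantile normalization, at 0.97, and with arrays centred on their medians or within lines, at 0.85 and 0.90. The next carrier below that threshold was Slc20a2, at 0.98, and the next above -1 was Slc12a8, at -0.93.

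The other members of this group were not called. Slc16a8, a lactate transporter of the retinal pigment epithelium, was at 0.67, 0.68 and 0.76 after cycloheximide and at 1.01, 0.70 and 0.95 after strontium. Slc10a2, the bile acid transporter of the ileum, was at 0.29, 0.60 and 0.97 after cycloheximide and at 1.01, 0.94 and 0.95 after strontium. For both genes all 6 arrays were above 0, as they were for Slc16a4, a monocarboxylate transporter homolog at a mean of 0.29. Slc22a19, an organic anion transporter known from the kidney, was at 0.83, 0.88 and -1.42 after cycloheximide and at -0.09, 0.21 and -0.98 after strontium. Array 3 was the lowest of each group for that gene, and its 6 arrays spread over both sides of 0.

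Of the 11 carriers of inorganic ions and protons, 1 was embryo-high, 0 were reference-high and 6 lay above 0 on all arrays, with a median of 0.40. Of all genes 36.0% lay above 0 on all arrays, and 11 genes are few for a share. Slc26a1, an anion exchanger that carries sulfate and oxalate, was at 2.22, 1.19 and 2.27 after cycloheximide and at 2.92, 1.96 and 1.57 after strontium. It had the highest mean of all 68 carriers, 4.05-fold over the reference (limma adjusted p = 0.000506), with the groups overlapping. Slc20a2, a sodium-phosphate cotransporter, was at 0.42, 0.69 and 1.66 after cycloheximide and at 0.83, 0.98 and 1.29 after strontium, while the related Slc20a1 averaged 0.34. Slc26a9, a chloride transporter of epithelia, was at 0.65, 0.72 and 0.98 after cycloheximide and at 0.91, 0.76 and 0.73 after strontium. Its 6 arrays lay within 0.33 of each other, which is a narrow range among these genes. Slc26a5, the motor protein of cochlear hair cells, averaged 0.66.

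The exchangers of sodium for protons, which regulate the pH of the cell and its organelles, were not called. Slc9a8 and Slc9a2 had means of 0.44 and 0.40, and both lay above 0 on all 6 arrays. The 2 probes of Slc9a2 disagreed, with means of 1.145 and -0.35. On the lower side of this group, Slc12a8 was at -1.64, -1.38 and -0.30 after cycloheximide and at -0.33, -1.32 and -0.62 after strontium. Slc4a8, a sodium-driven exchanger of chloride for bicarbonate, was at 0.03, 0.10 and -0.75 after cycloheximide and at -0.67, -0.53 and -0.64 after strontium. Slc17a4, a sodium-phosphate cotransporter known from the intestine, was at 0.37, 0.23 and -0.19 after cycloheximide and at 0.19, 0.19 and -2.07 after strontium. Array 3 of strontium stood far below its other 5 arrays. Slc26a6, an exchanger of chloride for oxalate and bicarbonate, averaged -0.21.

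Of the 5 metal carriers 2 lay above 0 and 3 below 0 on all 6 arrays, where 36.0% and 24.8% of all genes did so. With so few genes this is no result about metal carriers. Slc40a1, ferroportin, the only known exporter of iron from cells, was at 0.87, 1.18 and 2.26 after cycloheximide and at 1.97, 1.53 and 2.04 after strontium. Slc39a9, a zinc transporter, was at 1.48, 1.17 and 2.18 after cycloheximide and at 1.27, 1.25 and 1.84 after strontium. These were the genes ranked after Slc26a1 on the embryo side, with limma adjusted p-values of 0.00064 and 0.000371. Slc39a8, which takes up zinc and manganese, was at -1.99, -1.16 and -0.78 after cycloheximide and at -0.37, -1.04 and -0.10 after strontium. Slc30a9 and Slc30a10, members of a family that moves zinc and manganese out of the cytosol, were at -0.77, -0.87 and -0.79 after cycloheximide and at -0.42, -0.89 and -0.80 after strontium, and at -0.26, -0.38 and -0.24 after cycloheximide and at -0.59, -0.82 and -0.44 after strontium. None of these 3 reached a mean of -1 over the 6 arrays, but Slc39a8 did without array 3 of cycloheximide, at -1.038. For both Slc30 genes 1 probe lay near or above 0 and the other below -1.

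Of the 10 genes of the mitochondrial carrier family 0 were embryo-high and 3 were reference-high, with a median of -0.42. Slc25a24, which exchanges ATP-magnesium for phosphate across the inner membrane, was at -4.23, -3.36 and -2.20 after cycloheximide and at -2.33, -3.54 and -2.29 after strontium. Slc25a30, a carrier described in kidney mitochondria, was at -0.96, -1.28 and -2.86 after cycloheximide and at -2.45, -1.79 and -2.74 after strontium. Slc25a3, which brings in the phosphate needed for ATP synthesis, was at -0.81, -1.08 and -0.87 after cycloheximide and at -1.44, -1.43 and -1.19 after strontium. All 3 lay below 0 on every array, and Slc25a3 had the narrowest range, with the cycloheximide arrays above the strontium arrays. The first of them had its highest values on array 3 of cycloheximide, the second its lowest.

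No gene at the upper end of this family reached a mean of 1. Slc25a26, which carries S-adenosylmethionine into mitochondria for methylation, was at 0.83, 0.40 and 0.94 after cycloheximide and at 0.03, 1.09 and 0.21 after strontium. Its 2 probes disagreed, with means of 1.23 and -0.06, so its average may hide a higher ratio. Slc25a47, known from liver, was at 0.12, 0.17 and 0.33 after cycloheximide and at 0.38, 0.51 and 0.65 after strontium. Slc25a36, a carrier of pyrimidine nucleotides, was at -0.03, 0.10 and 0.36 after cycloheximide and at 0.29, 0.22 and 0.33 after strontium. These values range from just below 0 to slightly above 1. In between, Slc25a12, the aspartate-glutamate exchanger, averaged 0.05 and Slc25a17, which is known to act in peroxisomes, -0.27. The mean was -0.57 for Slc25a37, the mitochondrial iron importer, and -0.92 for Slc25a15, the ornithine carrier of the urea cycle.

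Carriers of nucleosides, vitamins, choline and lipids numbered 8, and 1 was reference-high. Slc44a2, a choline transporter-like protein, was at -0.76, -0.03 and -1.15 after cycloheximide and at -0.79, -2.81 and -0.98 after strontium. Array 2 of strontium lay far below the other 5, and without it the mean was -0.77, under the size required. Without array 3 of cycloheximide it was -0.96 (limma adjusted p = 0.0574), and without array 1 of that group -1.06 (limma adjusted p = 0.0533), and the call was lost in both. Slc19a1, the reduced folate carrier, was at -0.96, -0.56 and -0.47 after cycloheximide and at -0.96, -1.07 and -1.32 after strontium, below 0 on every array. Slc19a2, the thiamine transporter, was at -0.60, -0.65 and 0.00 after cycloheximide and at -0.19, -0.52 and 0.02 after strontium. Slc28a2, a sodium-coupled nucleoside transporter, was at 0.72, 0.85 and -0.01 after cycloheximide and at 0.67, 0.68 and 0.39 after strontium. Slc5a7, the high-affinity choline transporter of cholinergic neurons, was at 0.08, 0.31 and 0.77 after cycloheximide and at 0.78, 0.48 and -0.34 after strontium. Of these last 3 genes none stood on 1 side of 0 on all arrays. Slc27a2, which activates very long chain fatty acids, was at 1.34, 1.07 and -0.48 after cycloheximide and at 0.65, -2.79 and -0.22 after strontium and had the largest SD of all carriers, 1.51. Slc29a1, the equilibrative nucleoside transporter, averaged -0.27 and Slc48a1, a heme transporter, -0.16.

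Slc35a1, which brings CMP-sialic acid into the Golgi, was at -3.42, -2.83 and -1.83 after cycloheximide and at -2.90, -3.00 and -2.85 after strontium. It was below -1 on all arrays, with 6.98-fold more signal in the reference in the mean. Slc35a5, a homolog in the same family, was at 0.48, 0.48 and -0.31 after cycloheximide and at 0.52, 0.43 and 0.12 after strontium. The vesicular transporters Slc17a8, for glutamate, and Slc18a1, for monoamines, were at -0.67, 0.50 and 1.43 after cycloheximide and at 1.15, 0.97 and 1.37 after strontium, and at 0.25, 0.20 and 0.26 after cycloheximide and at 0.11, -0.01 and -0.01 after strontium. Neither was called.

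Slc66a1, which lets cationic amino acids out of lysosomes, was at 0.29, 0.36 and 0.72 after cycloheximide and at 0.86, 0.61 and 1.01 after strontium, and the related Slc66a2 was at 0.94, 0.75 and 1.16 after cycloheximide and at 1.21, 1.13 and 1.16 after strontium. Both were above 0 on all arrays and Slc66a2 was embryo-high, although arrays 1 and 2 of cycloheximide gave exactly 0 for 1 of its 3 probes. Those probes lay at 0.80, 1.84 and 0.54, and the call was lost with their median in place of their mean. It was also lost with arrays centred on their medians or within lines of consecutive probe numbers. Slc66a1 and Slc66a2 carry names of the rule's form but fell in none of the cargo groups.

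How far a gene's ratio can be read from 1 probe is shown by the 15 carriers with more than 1 probe. For 10 of them the probes lay on opposite sides of 0, and for 8 the highest and lowest probe were more than 1 apart on the log2 scale, with a median gap of 1.28. Slc25a37 had the widest gap: its 3 probes lay at -2.40, 0.11 and 0.59. The probes of Slc38a9 were at -1.93 and 0.46, and those of Slc30a9 at -1.56 and 0.05. Slc6a9 and Slc25a47 were the closest, with gaps of 0.19 and 0.27. The other 53 carriers, Slc2a1 and Slc38a2 among them, rest on a single probe. The cause of the gaps was not tested.

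**Figure D2:**
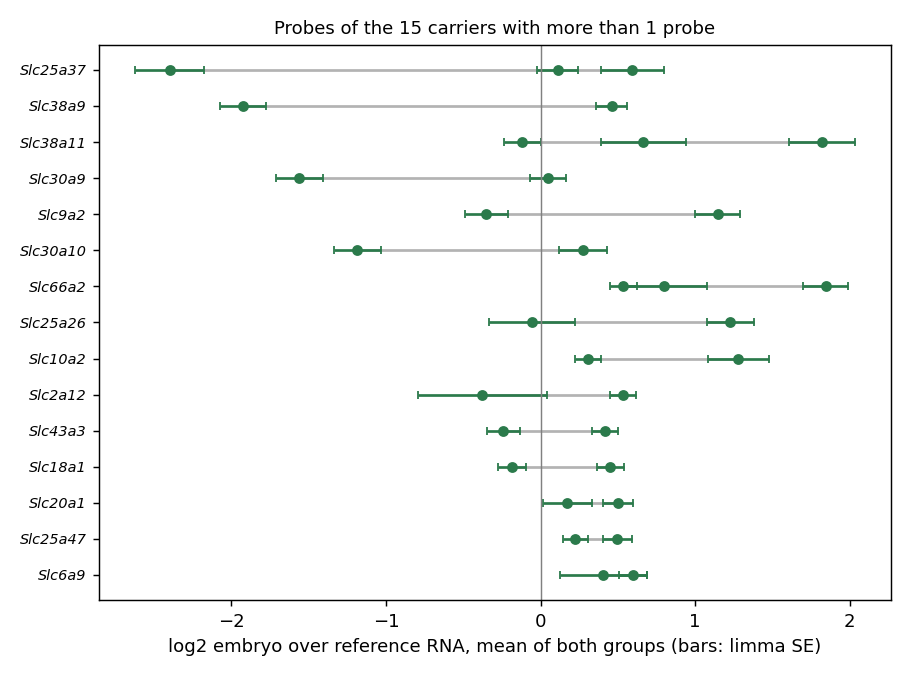
Log2 ratio of embryo over reference RNA, as the mean of both groups, for each probe of the 15 carriers with more than 1 probe; bars are limma standard errors and grey lines join the probes of a gene. The probes of Slc25a37 span 2.99 and those of Slc6a9 0.19.

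The second comparison sets embryos of eggs activated by a block of protein synthesis against those of eggs activated with strontium. Differences are cycloheximide minus strontium in log2. By limma 0 of the 68 carriers passed an adjusted p of 0.05 in either direction, against 0.0% of all genes, and the lowest adjusted p of a carrier was 0.717. At an unadjusted p under 0.05, 4 carriers were higher and 0 lower, where 4.28% and 2.36% of all genes were. Groups were fully separate for 6 carriers on the higher side and 4 on the lower, against 6.01% and 5.9% of all genes. Below 0 lay 37 carriers, or 54.4%, against 54.7% of all genes, and the median difference was -0.08 against -0.03. All of these shares are near those of the other genes. The 95% interval reached 0.65 to each side of the difference for the median carrier, so the data do not show that the carriers were alike.

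The 4 carriers at an unadjusted p under 0.05 included both measured members of the Slc1 family of glutamate transporters. Slc1a3, which takes up glutamate and aspartate and is best known from glia, was at 0.88, 1.04 and 1.15 after cycloheximide and at -0.22, 0.26 and 0.58 after strontium. Every cycloheximide array lay above every strontium array, and the difference was 0.81 (SE 0.24, unadjusted p = 0.0149, limma adjusted p = 0.717). Slc1a2, the main glutamate transporter of astrocytes, was at -0.14, 0.13 and -0.16 after cycloheximide and at -1.04, -0.47 and -0.67 after strontium. Here too the groups did not overlap, with a difference of 0.67 (SE 0.21, limma adjusted p = 0.717). Each of these genes rests on 1 probe.

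Slc22a22, a transporter of prostaglandins known from the kidney, was at 0.31, 0.27 and 0.26 after cycloheximide and at -0.24, -0.30 and -0.11 after strontium. The arrays of each group lay close together and on opposite sides of 0, with a difference of 0.50 (SE 0.15, limma adjusted p = 0.717). For Slc25a3, the mitochondrial phosphate carrier with the array values given above, the difference was 0.43 (SE 0.17, limma adjusted p = 0.74). Next in p on this side came Slc19a1, at 0.45 (SE 0.20), and Slc6a6, at 0.85 (SE 0.39). The groups of the first 4 did not overlap, while 1 cycloheximide array of Slc19a1 and of Slc6a6 lay below the highest strontium array. The other 2 carriers without overlap on this side were Slc30a10, at 0.33, and Slc18a1, at 0.21.

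On the lower side the smallest p belonged to Slc9a8, a sodium-proton exchanger of the Golgi and the cell surface, at 0.31, 0.36 and 0.20 after cycloheximide and at 0.63, 0.61 and 0.54 after strontium. The groups did not overlap and the difference was -0.30 (SE 0.15, limma adjusted p = 0.818). Slc39a8 differed by -0.81 (SE 0.39), which was the largest difference on this side, with overlapping groups. Slc25a47 differed by -0.31, Slc66a1 by -0.37, Slc10a2 by -0.35 and Slc29a1 by -0.56. Of these, the groups of Slc25a47 did not overlap. Slc29a1 was at -0.14, -0.26 and -1.24 after cycloheximide and at -0.15, 0.37 and -0.17 after strontium, and its lowest value was that of array 3 of cycloheximide. Slc36a2 and Slc6a18, also without overlap, differed by -0.30 and -0.24. The difference with the largest size of all, that of Slc27a2, was 1.43 with an SE of 0.96, and its groups overlapped.

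**Figure D3:**
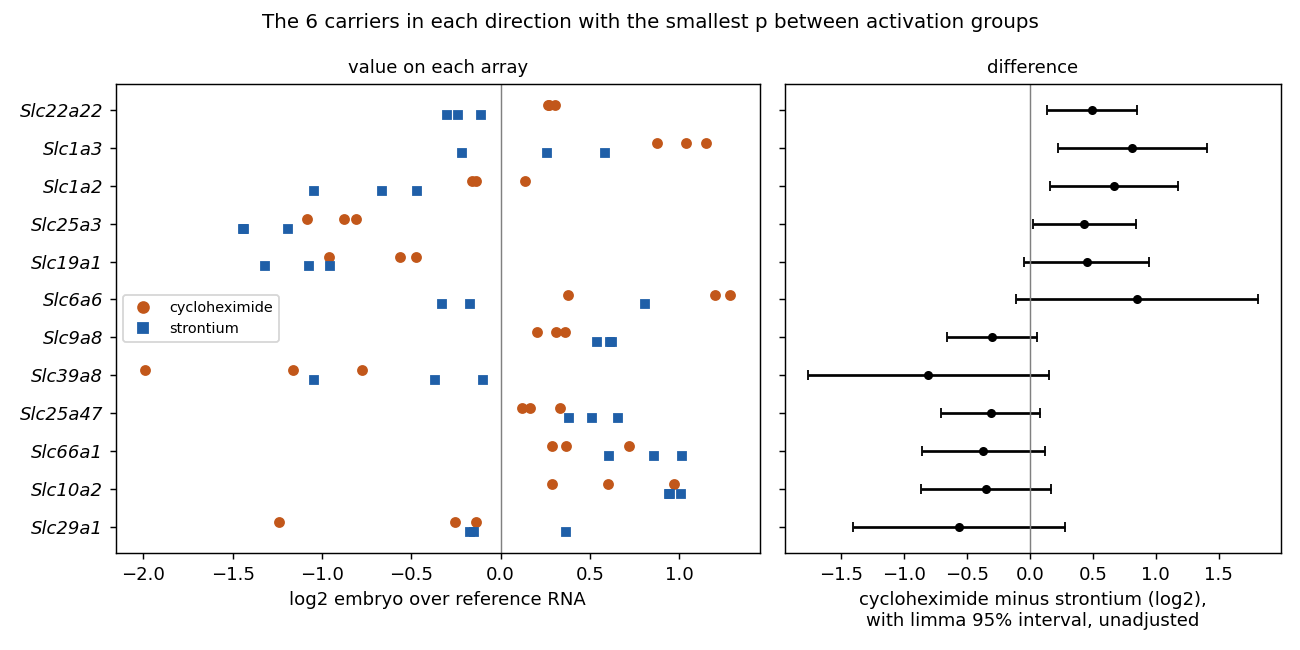
The 12 carriers with the smallest p between the activation groups, 6 in each direction; left, the log2 ratio of embryo over reference on each array (circles cycloheximide, squares strontium), and right, the difference with its unadjusted 95% interval from limma. The groups do not overlap for Slc22a22, Slc1a3, Slc1a2, Slc25a3, Slc9a8 and Slc25a47, and the intervals of 4 carriers leave out 0.

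None of the 3 glucose transporters passed the test between the groups. Slc2a1 differed by 0.04 with an interval of 0.56 to each side, Slc2a3 by 0.27 with 0.54, and Slc2a12 by -0.52 with 1.06. For Slc2a12 the difference was -0.99 without array 3 of cycloheximide (unadjusted p = 0.0114, limma adjusted p = 0.206). Slc2a1 was at the limit on 1 array, so its difference is uncertain. The interval was wide for Slc38a2, at -0.46 with 1.82 to each side, and for Slc26a1, at -0.25 with 1.10. Slc7a5 differed by 0.38 and Slc7a11 by -0.40. By cargo, 2 of 18 amino acid carriers, 1 of 7 carriers of carboxylates and organic ions and 1 of 10 mitochondrial carriers were higher at an unadjusted p under 0.05, and 0 were lower in any group. Of all genes 4.28% were higher and 2.36% lower at that p. Median differences by cargo lay between -0.27, over the 2 vesicular transporters, and 0.20, over the mitochondrial carriers. Of the latter, 7 of 10 were above 0, where 54.7% of all genes lay below 0, and 10 genes are few for a share.

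Over all probes, array 3 of cycloheximide had the widest spread of log2 ratios, with an interquartile range of 1.58. Arrays 1 and 2 of its group had 1.09 each, and the strontium arrays 1.38, 1.29 and 1.57. Among the carriers, array 3 of cycloheximide was the highest array of its group for 40 of 68 genes and the lowest for 25. It was the farthest from the group's median for 50, against 7 and 11 for the other arrays of the group. In strontium the counts farthest from the median were 16, 27 and 25. The distance of array 3 of cycloheximide from the mean of arrays 1 and 2 was over 1 for 20 carriers, and that of array 3 of strontium from its group's arrays 1 and 2 for 7. For 48 of 68 carriers the 2 arrays numbered 3 deviated to the same side of their groups (r = 0.53 over the carriers, which share the arrays and are not independent). Slc38a2, Slc48a1, Slc25a24 and Slc7a11 lay higher on both, and Slc22a19 and Slc25a30 lower on both. The same counts were not made over all genes, so they are no result about the carriers.

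**Figure D4:**
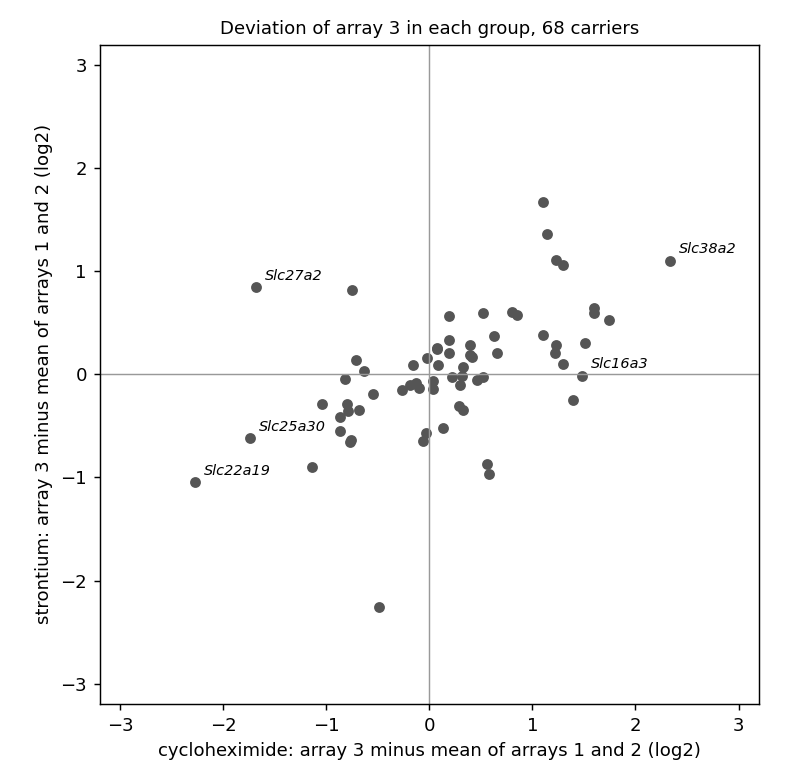
For each of the 68 carriers, the log2 ratio on array 3 minus the mean of arrays 1 and 2, in the cycloheximide group (horizontal axis) and in the strontium group (vertical axis). Points spread farther along the horizontal axis, with 20 carriers beyond 1 against 7 on the vertical axis, and 48 lie on the same side of 0 in both.

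Without array 3 of cycloheximide 10 carriers were higher and 9 lower at an unadjusted p under 0.05, where 7.36% and 11.5% of all genes were, and by limma 0 passed the adjusted threshold (lowest adjusted p = 0.206). The smallest p then belonged to Slc4a8, with a difference of 0.68 (SE 0.14), followed by Slc7a11 at -0.93 (SE 0.24), Slc2a12, given above, and Slc25a30 at 1.20 (SE 0.32). Slc40a1 differed by -0.82, Slc7a5 by 0.56, and Slc1a3 and Slc1a2 by 0.75 and 0.73. Leaving out array 1 of strontium gave 2 higher and 0 lower carriers, where 2.47% and 1.35% of all genes were. The part of these arrays in the differences was not tested.

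Of 24 genes listed as partners of the carriers outside the family, 5 were measured. Bsg and Emb, the chaperones that bring monocarboxylate carriers to the cell surface, were reference-high at means of -2.17 and -2.62. Hk2, a hexokinase that phosphorylates imported glucose, was at -4.07, -3.68 and -1.79 after cycloheximide and at -3.03, -1.72 and -2.64 after strontium. It lay below 0 on all arrays, as 24.8% of all genes did. Fxyd6, a modulator of the sodium pump, averaged 0.28 and the water channel gene Aqp8 0.50. Of these 5, 3 were reference-high and 0 embryo-high, where 16.3% and 11.2% of all genes were, and 5 genes are few for a share. Emb was at -2.12, -2.29 and -2.59 after cycloheximide and at -2.99, -2.89 and -2.85 after strontium, with groups that did not overlap and a difference of 0.58 (SE 0.18, limma adjusted p = 0.717). By limma 0 of the 5 passed between the activation groups, with 1 at an unadjusted p under 0.05. The pyruvate carrier and uncoupling protein genes on the list were not among the genes measured.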

How the data were processed

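Per the labels, transcripts of 6 embryo pools were measured on 2-colour Agilent arrays against a common reference RNA. The deposited log10 ratios, 1 column per array for 22132 probes, came from Agilent Feature Extraction (version and settings not given in the sources used here), per the submitters' processing notes. The values lie between the limits -2 and 2, hold 471 to 755 exact zeros per array, and have array medians between -0.0602 and -0.0313. Multiplying by 3.32 and changing the sign gave log2 ratios of embryo over reference. The platform annotation gave 1 symbol for 6249 probes, several for 9389 and none for 6494; 6179 of the first matched the mouse gene table (GRCm38.p6) by ID. Probes at exactly 0 on all arrays (211) were dropped, other zeros kept, and probes averaged per gene. limma 3.58.1 in R 4.3.3 (lmFit, eBayes, Benjamini-Hochberg over 4742 genes) tested the difference and the mean ratio; the fit was tested on simulated data. The members and lists were chosen with earlier results of these data known. Named in full are up to 3 members with the highest and 3 with the lowest mean of each cargo group, the 6 in each direction with the smallest p between groups, and carriers known from early embryos. No intensities were used; precision is limited by there being 6 arrays. Same-numbered arrays deviated together at correlations of 0.056, 0.379 and 0.501. The titles number the arrays but name no pairing, and the main fit used none. Whether the numbers mark samples handled together was not tested, and a fit with the replicate block is given among the alternatives. Python 3.11.15, pandas 2.3.3 and matplotlib 3.10.9 were used.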

Additional observations from a re-analysis of the deposited data

Results flagged for a closer look

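For 2 of the 68 carriers all arrays of one group lay above 0 and all of the other below it, where 0.696% of all genes did so. Slc22a22 was on the embryo side after cycloheximide and on the reference side after strontium, with a difference of 0.50 (limma adjusted p = 0.717). Slc6a18, an amino acid transporter of the kidney, was at -0.00, -0.12 and -0.16 after cycloheximide and at 0.14, 0.24 and 0.06 after strontium, with a difference of -0.24 (limma adjusted p = 0.841). Neither difference passed the test. With every array centred on its median, the zero against which these sides are read moves by a different amount on each array. The median ratio of all genes falls by 0.17. On strontium arrays 1 and 3 the values of Slc6a18, 0.14 and 0.06, are smaller than that fall. All values of Slc22a22 above 0 are larger. The sides were not counted again after centring.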

How the results depend on the processing

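Counts of carriers past the adjusted threshold between the activation groups were 0 and 0 under every alternative run. At an unadjusted p under 0.05, 4 were higher and 0 lower. Array weights gave 11 and 11 (9.43% and 11.3% of all genes), and all probes at 0 kept gave 1 lower (2.88% of all genes). With each probe tested by itself 5 probes were higher and 2 lower, and the share over all probes was not counted. Leaving out 1 array gave 2 to 10 higher and 0 to 9 lower carriers, with 1 lower without array 2 of strontium. Over all genes these shares ran from 2.3% to 7.36% and from 1.3% to 11.5%. With the replicate block 6 were higher and 0 lower (6.62% and 3.73% of all genes), with 0 past the adjusted threshold. The main counts of 8 embryo-high and 9 reference-high carriers became 4 embryo-high with arrays centred on their medians (8.56% of all genes). With arrays centred within lines of consecutive probe numbers they became 5 and 14 (8.46% and 18.9% of all genes). At a size of 2 they were 1 and 5, and at a size of 0.5 they were 20 and 17, with the shares over all genes not counted. Leaving out 1 array gave 6 to 10 and 8 to 11 (10.5% to 12.2% and 15.7% to 16.2% of all genes). Of 254 alternative values of the 17 called ratios, 20 in 7 genes fell under the call and 0 changed sign. The 12 named differences kept their sign in all 180 alternative values. They were picked by their p on these same arrays, which the alternatives use again, so this is no independent support for them. Over all 68 carriers and 15 alternatives with gene averages, 62 of 1019 differences and 31 ratios changed sign, in 27 and 11 genes; the largest of these differences was 0.70 in size and the largest ratio 0.21. The cause of these shifts was not tested. Signal over background was not analysed here.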

Other observations

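The ABC transporters, which pump their cargo with ATP, were the other transporter family measured, with 16 genes. Of these, 4 were embryo-high and 3 reference-high, where 11.2% and 16.3% of all genes were, and 16 genes are few for a share. Abcg4, a sterol exporter, was at 2.55, 2.75 and 2.43 after cycloheximide and at 3.06, 3.19 and 2.23 after strontium, and Abcf1, a family member without a membrane domain that takes part in translation, was at 2.04, 1.96 and 2.04 after cycloheximide and at 1.49, 1.87 and 1.60 after strontium. Both lay above 1 on all arrays. Abca3, a lipid transporter of the lung, averaged -2.60, over a range from -4.34 to -0.91. By limma 0 of the 16 passed between the activation groups, with 0 at an unadjusted p under 0.05. Of all genes 4.28% were higher and 2.36% lower at that unadjusted p.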
